A study of Mus musculus with 12 samples.

Results

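Gjb2, Gjb6, Gja1 and Gjb5 encode connexin 26, connexin 30, connexin 43 and connexin 31.1, the gap junction proteins examined here in mouse epidermis. They are 4 of the 18 connexin genes that were looked up, and they were chosen by name with earlier results of these data known, so their differences between groups are described below without a test. All 4 had values in every library, among 19392 genes with values at postnatal day 36 (P36) and 17750 at 6 months, and all 4 passed the filter on low values at both ages. At 6 months Gjb6 needed the libraries labelled DKO to pass it.

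Expression was measured in dorsal epidermis of mice on a C57BL/6 background, in 12 libraries. The libraries labelled DKO (double knockout) come from mice with VDR fl/fl and Med1 fl/fl alleles and the K14 Cre+/- transgene, with 3 libraries at P36 and 3 at 6 months. The control libraries come from mice with the same floxed alleles and K14 Cre-/-, again with 3 libraries at each age. The Cre transgene is driven by the promoter of keratin 14, a gene of basal keratinocytes, so it acts in these cells and the layers they give rise to. The comparisons ask how gene expression changes when keratinocytes lose Vdr, the vitamin D receptor, together with its coactivator Med1, a Mediator subunit. Whether the replicates are separate animals is not given in the labels, so the spread behind the SDs and p-values may be technical.

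Connexins assemble into hemichannels, and hemichannels of neighbouring cells dock to form gap junctions, through which ions and small metabolites pass. In the epidermis and the hair follicle several connexins are made side by side, in layers that differ between them, and they change with differentiation and wound healing. In humans, mutations of GJB2 cause deafness and disorders of cornification, mutations of GJB6 cause hidrotic ectodermal dysplasia, and mutations of GJA1 cause oculodentodigital dysplasia.

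Gjb2 and Gjb6 are next to each other among the protein-coding genes of mouse chromosome 14, after Gja3. Gjb5 lies on chromosome 4, and Gja1 on chromosome 10. Promoter sequences are shown because Gjb2, Gjb6 and Gja1 shared a pattern of levels that Gjb5 did not. Each is the 250 bases before the annotated start of the gene, read 5′ to 3′ along the gene, from RefSeq on GRCm38.p6, and capitals mark the motif matches described after the sequences.
Gjb2 (chr14:57104703-57104952, minus strand): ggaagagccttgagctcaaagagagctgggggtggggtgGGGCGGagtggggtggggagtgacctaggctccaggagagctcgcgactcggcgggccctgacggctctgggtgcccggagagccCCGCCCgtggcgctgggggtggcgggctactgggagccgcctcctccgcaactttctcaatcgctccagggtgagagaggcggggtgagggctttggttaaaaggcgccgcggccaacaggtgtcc
Gjb6 (chr14:57133612-57133861, minus strand): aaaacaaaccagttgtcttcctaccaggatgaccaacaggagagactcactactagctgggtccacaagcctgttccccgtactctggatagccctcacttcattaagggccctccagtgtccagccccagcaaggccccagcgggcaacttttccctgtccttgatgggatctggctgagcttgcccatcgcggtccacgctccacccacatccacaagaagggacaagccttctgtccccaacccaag
Gja1 (chr10:56377050-56377299, plus strand): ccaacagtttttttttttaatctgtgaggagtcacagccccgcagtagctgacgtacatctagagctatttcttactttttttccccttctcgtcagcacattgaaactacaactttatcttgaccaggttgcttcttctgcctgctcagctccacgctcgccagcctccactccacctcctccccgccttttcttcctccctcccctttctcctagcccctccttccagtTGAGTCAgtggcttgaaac
Gjb5 (chr4:127358165-127358414, minus strand): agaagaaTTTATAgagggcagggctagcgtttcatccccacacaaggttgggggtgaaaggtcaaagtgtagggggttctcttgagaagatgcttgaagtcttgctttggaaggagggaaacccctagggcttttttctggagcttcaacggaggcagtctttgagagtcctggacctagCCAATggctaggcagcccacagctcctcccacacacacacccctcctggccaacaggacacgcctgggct
Motifs were searched on both strands in a 300-base window that also takes in 50 bases after the start, which are not printed. The Gjb2 promoter had 69.2% G and C and held the GC box letters GGGCGG at 211 bases before the start and, on the opposite strand, at 126 bases before it. The Gja1 promoter had 50.0% G and C and held the AP-1 letters TGANTCA at 19 bases before the start. The Gjb5 promoter had 54.4% G and C, with TATAAA on the opposite strand at 243 bases and CCAAT at 70 bases before the start. The Gjb6 promoter had 56.8% G and C and no match to any of these letters. None of the 4 held the exact letters of the direct repeat of the nuclear receptor motif with 3 bases between (DR3). The vitamin D receptor binds elements of this type, but variants of the repeat were not searched. Its exact letters were in only 2 of 32851 RefSeq promoter windows, so their absence from 4 promoters says little. Whether the receptor binds at these promoters was not tested. No match overlapped another one. Over 32851 RefSeq promoter windows of this length, GGGCGG was found in 35.7%, TGANTCA in 7.81%, TATAAA in 13.6%, CCAAT in 37.4% and the DR3 repeat in 0.00609%.

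Levels are FPKM (fragments per length of the gene and per total of its library), as the authors deposited them, with 2 decimals and no read counts, so the depth of each library is unknown. The FPKM columns summed to 446617.2 to 554382.1, and 12056 to 12760 genes reached 1 FPKM per library. Of the targeted genes, Vdr did not fall in libraries labelled DKO. At P36 it had 87.35, 86.67 and 76.53 FPKM in libraries labelled DKO, against 65.80, 65.50 and 72.85 FPKM in control libraries (log2 difference 0.29, SE 0.09, limma adjusted p = 0.0573). At 6 months it had 49.34, 42.11 and 52.89 FPKM in libraries labelled DKO, against 53.52, 31.36 and 36.68 FPKM in control libraries (log2 difference 0.27, SE 0.20, limma adjusted p = 0.302), and without control 6-month replicate 1 it was called higher (0.49, limma adjusted p = 0.031). Med1 was lower at P36, with 9.11 ± 1.11 FPKM in libraries labelled DKO and 13.8 ± 0.504 FPKM in control libraries (SD, n = 3 each; log2 difference −0.55, SE 0.11, limma adjusted p = 0.0083). At 6 months Med1 averaged 11.6 ± 0.256 FPKM in libraries labelled DKO and 14.2 ± 2.21 FPKM in control libraries (log2 difference −0.26, limma adjusted p = 0.13). Which exons were floxed is not given in the labels, and every direction below is between libraries labelled DKO and control libraries.

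At P36, Gjb2, Gjb6 and Gja1 were lower in the libraries labelled DKO than in every control library, and Gjb5 was not separated. Gjb2 (connexin 26) had 317.38, 268.91 and 200.40 FPKM in the libraries labelled DKO, against 527.60, 583.69 and 616.38 FPKM in the control libraries. The highest library labelled DKO stood well below the lowest control, and the log2 difference was −1.15 with an SE of 0.17, on the log2(FPKM + 1) scale used for all differences. In means, this was 262 ± 58.8 FPKM in libraries labelled DKO and 576 ± 44.9 FPKM in control libraries (SD, n = 3 each), a control mean 2.20 times the other. Gjb6 (connexin 30), the neighbour of Gjb2, had 21.34, 20.33 and 19.36 FPKM in the libraries labelled DKO and 67.65, 58.45 and 77.19 FPKM in the control libraries. Its libraries labelled DKO were nearly alike and far below the controls, with a log2 difference of −1.68 (SE 0.11) and a control mean 3.33 times that of the libraries labelled DKO.

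Gja1 (connexin 43), the most widely expressed connexin of the body, had 339.81, 322.65 and 287.99 FPKM at P36 in the libraries labelled DKO, against 449.85, 479.52 and 550.62 FPKM in the control libraries. The groups did not overlap, and the gap was smaller than for Gjb2 and Gjb6 (log2 difference −0.64, SE 0.12; control mean 1.56 times that of the libraries labelled DKO). Gjb5 (connexin 31.1) had 36.35, 33.79 and 39.20 FPKM in the libraries labelled DKO and 52.61, 39.49 and 31.99 FPKM in the control libraries. The control libraries spanned the whole range of the libraries labelled DKO, so no difference could be told from the spread (log2 difference −0.15, SE 0.17). Without control P36 replicate 1 the Gjb5 difference was 0.03. Thus 3 of the 4 genes had groups that did not overlap at P36, all with the libraries labelled DKO lower. Over all 12660 genes fitted at P36, the groups did not overlap for 39.6%, and for 9.63% with the libraries labelled DKO lower; nothing is read from this, since the genes were chosen on these contrasts.

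At 6 months the same 3 genes stood the other way round, and Gjb5 was lower in the libraries labelled DKO. Gjb2 had 40.17, 38.19 and 61.52 FPKM in the libraries labelled DKO, against 5.69, 6.64 and 5.17 FPKM in the control libraries. Every library labelled DKO was far above every control, with means of 46.6 ± 12.9 FPKM in libraries labelled DKO and 5.83 ± 0.745 FPKM in control libraries (SD, n = 3 each; 7.99 times the control mean; log2 difference 2.77, SE 0.19). Gjb6 had 6.23, 9.11 and 5.14 FPKM in the libraries labelled DKO and 1.54, 0.81 and 1.54 FPKM in the control libraries. The groups were apart at these low levels, at 5.26 times the control mean. At this age Gjb6 passed the filter on low values only with the libraries labelled DKO, which favoured this direction. The log2 difference was 1.75 (SE 0.23), and 2.32 with a pseudocount of 0.1 in place of 1.

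Gja1 had 86.33, 85.85 and 119.34 FPKM at 6 months in the libraries labelled DKO and 67.51, 79.02 and 74.74 FPKM in the control libraries. The groups did not overlap, but replicate 3 of the libraries labelled DKO stood above the other two (log2 difference 0.38, SE 0.15, and 0.22 without that library). Gjb5 had 51.07, 45.10 and 30.29 FPKM in the libraries labelled DKO, against 81.99, 95.81 and 90.08 FPKM in the control libraries. All control libraries were higher, with a control mean 2.12 times that of the libraries labelled DKO (log2 difference −1.09, SE 0.19). At 6 months the groups of all 4 genes did not overlap. Over all 12594 genes fitted at this age that held for 55.7%, with the libraries labelled DKO higher for 31.8% and lower for 24%.

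The authors' deposited table gives its own log2 ratio of DKO over control for each gene. At P36, the authors' deposited table has −1.14 for Gjb2, −1.74 for Gjb6, −0.64 for Gja1 and −0.18 for Gjb5. At 6 months, the authors' deposited table has 2.999 for Gjb2, 2.40 for Gjb6, 0.40 for Gja1 and −1.08 for Gjb5. For Gjb2 and Gjb6 at 6 months these exceed the differences above, which are on a scale with 1 FPKM added.

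**Figure D1:**
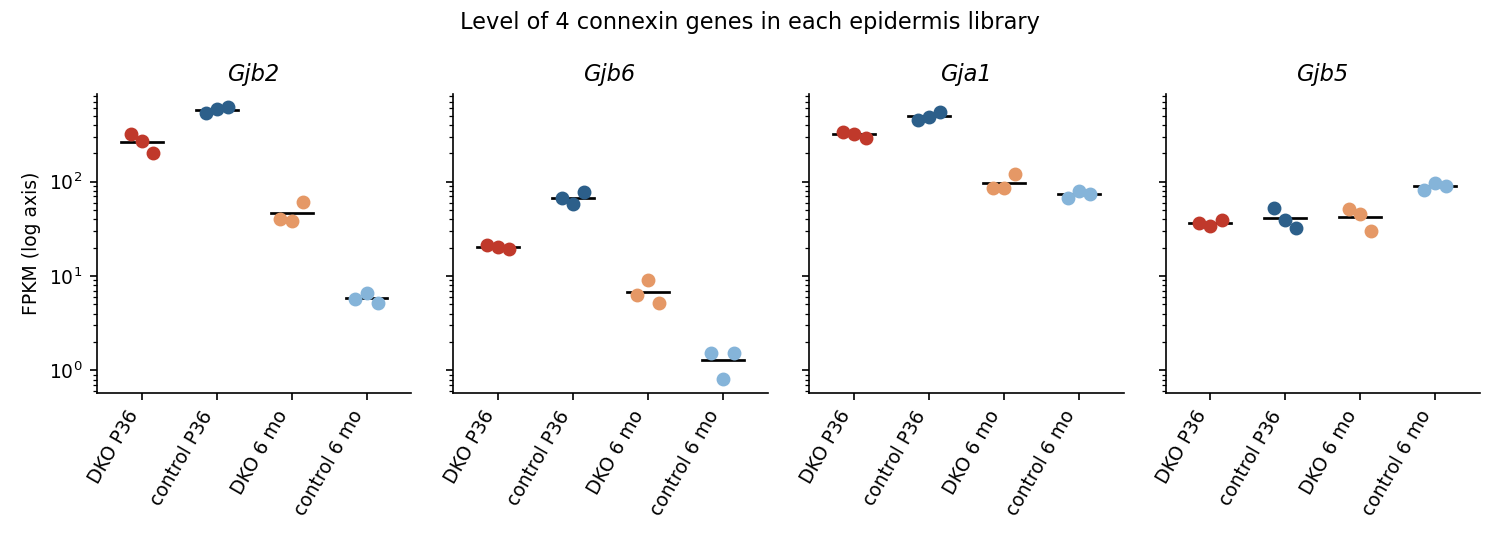
FPKM of Gjb2, Gjb6, Gja1 and Gjb5 on a log axis in each of the 12 libraries (points; black lines are group means of 3 libraries). Gjb2, Gjb6 and Gja1 are lower in DKO than in control at P36 and higher in DKO at 6 months, while Gjb5 is highest in control at 6 months.

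Set across all 4 groups, Gjb2, Gjb6 and Gja1 had the same order of levels. From low to high it ran control at 6 months, DKO at 6 months, DKO at P36 and control at P36, and for none of the 3 genes did neighbours in this order overlap. The order is a description: each table holds 1 age, each library is scaled to its own total, and whether both tables were made in one run is not stated. Among libraries labelled DKO, the 6-month mean of Gjb2 was 46.6 FPKM against 262 FPKM at P36, so that the P36 mean was 5.62 times the 6-month mean. In control libraries the 6-month mean was 5.83 FPKM against 576 FPKM at P36, a P36 mean 98.7 times the 6-month mean. For Gjb6 the P36 mean was 2.98 times the 6-month mean in libraries labelled DKO, and 52.3 times in control libraries. Gja1 had P36 means 3.26 times the 6-month mean in libraries labelled DKO and 6.69 times in control libraries. In each of the 3 genes, the groups labelled DKO thus lay closer together across age than the control groups did.

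Gjb5 ran differently. Its level was highest in control libraries at 6 months, and the other 3 groups overlapped with their neighbours in the order DKO at 6 months, control at P36 and DKO at P36. The 6-month mean of Gjb5 was 1.16 times the P36 mean in libraries labelled DKO and 2.16 times in control libraries.

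The difference between the 2 ages in the log2 difference (6 months minus P36) was 3.93 (SE 0.27) for Gjb2, 3.43 (SE 0.26) for Gjb6, 1.01 (SE 0.19) for Gja1 and −0.94 (SE 0.27) for Gjb5. The first 3 had groups that did not overlap at either age and opposite directions, with libraries labelled DKO lower at P36 and higher at 6 months. Of the 12047 genes fitted at both ages, 228, or 1.89%, had that pattern, and 743, or 6.17%, had the opposite one. Since the genes were chosen with these results known, the comparison with 1.89% is a description.

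Among all transcripts, Gjb2 ranked 227 to 361 of 19392 in the libraries labelled DKO at P36, against 137 to 163 in the control libraries. At 6 months it ranked 1310 to 2252 of 17750 in libraries labelled DKO and 8140 to 9132 in control libraries. Gja1 stayed nearer the top, at 216 to 247 in libraries labelled DKO and 153 to 182 in control libraries at P36. Its ranks at 6 months were 586 to 934 in libraries labelled DKO and 881 to 1039 in control libraries. Gjb6 ranked 4079 to 4333 in libraries labelled DKO and 1028 to 1325 in control libraries at P36, and 6814 to 9281 in libraries labelled DKO and 11694 to 12580 in control libraries at 6 months.

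FPKM is scaled by gene length, so levels of different connexins can be added and compared. Gjb2, Gjb6, Gja1 and Gjb5 together summed to 714.88, 645.68 and 546.95 FPKM in the libraries labelled DKO at P36, against 1097.71, 1161.15 and 1276.18 FPKM in the control libraries. At 6 months the sums were 183.8, 178.25 and 216.29 FPKM in the libraries labelled DKO and 156.73, 182.28 and 171.53 FPKM in the control libraries. The P36 sums did not overlap, with the libraries labelled DKO lower, while the 6-month sums overlapped.

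The makeup of this sum differed between ages and genotypes. Gjb2 made up 40.9% ± 3.93 of it in libraries labelled DKO and 48.9% ± 1.21 in control libraries at P36 (SD, n = 3 each). At 6 months Gjb2 made up 23.9% ± 3.93 in libraries labelled DKO and 3.43% ± 0.359 in control libraries. Gjb5 took the reverse course with age, with 5.83% ± 1.16 in libraries labelled DKO and 3.57% ± 1.15 in control libraries at P36, and 22.4% ± 7.34 in libraries labelled DKO and 52.5% ± 0.133 in control libraries at 6 months. Gja1 held a steadier share, at 50.0% ± 2.56 in libraries labelled DKO and 41.8% ± 1.17 in control libraries at P36, and 50.1% ± 4.43 in libraries labelled DKO and 43.3% ± 0.250 in control libraries at 6 months (SD, n = 3 each). The groups did not overlap in any of these shares at either age. As shares of 1 sum, these values are not independent of each other.

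**Figure D2:**
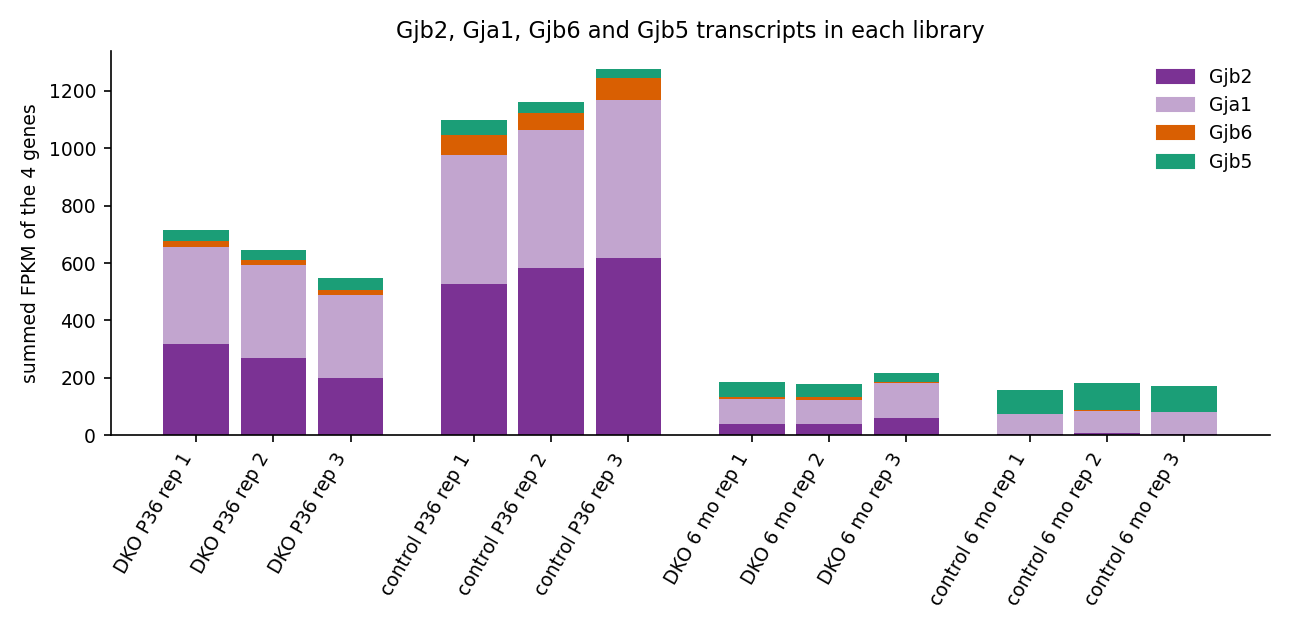
Summed FPKM of Gjb2, Gja1, Gjb6 and Gjb5 in each of the 12 libraries, stacked by gene. At P36 Gjb2 and Gja1 fill most of each bar, and bars are shorter in DKO (546.95 to 714.88 FPKM) than in control (1097.71 to 1276.18 FPKM), while at 6 months Gjb5 takes a larger share.

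Ratios within a library do not depend on its scaling. Gja1 over Gjb2 was 1.07 to 1.44 in libraries labelled DKO at P36 and 0.822 to 0.893 in control libraries. At 6 months this ratio was 1.94 to 2.25 in libraries labelled DKO and 11.9 to 14.5 in control libraries. Gjb2 thus exceeded Gja1 in the control libraries at P36 and in no other library, and the groups were apart at both ages in this ratio. Gjb2 over Gjb6, the neighbours on chromosome 14, was 10.4 to 14.9 in libraries labelled DKO and 7.80 to 9.99 in control libraries at P36, without overlap. At 6 months it was 4.19 to 11.97 in libraries labelled DKO and 3.36 to 8.20 in control libraries, which overlapped.

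Of 14 other connexin genes looked up, 6 passed the filter at P36 (at least 1 FPKM in at least 3 of the 6 libraries). By limma with Benjamini-Hochberg adjustment over all genes, 2 of the 6 rose and 1 fell in the libraries labelled DKO. Of all genes fitted 23.3% were called, 18% higher and 5.32% lower. The median log2 difference of the 6 was 0.33, and that of all genes was 0.09. The 6 include Gjc1 and Gjb1, which needed the libraries labelled DKO to pass the filter, so this median and the count that rose are not free of it. Gjc1 (connexin 45, known from the heart and from vessel walls) had 2.42, 3.07 and 2.86 FPKM in libraries labelled DKO, against 0.82, 1.00 and 0.91 FPKM in control libraries (log2 difference 0.98, SE 0.13, limma adjusted p = 0.0016). Its control libraries stood at or below the 1 FPKM of the filter, which favoured this direction. Gja4 (connexin 37, of the endothelium) had 4.79, 6.17 and 7.12 FPKM in libraries labelled DKO and 3.37, 2.66 and 2.21 FPKM in control libraries (0.90, SE 0.17, limma adjusted p = 0.00688). In both genes every library labelled DKO was above every control, as was the summed level of the smooth muscle and endothelial markers given below; its part in these differences was not tested.

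Gja3 (connexin 46, best known from the lens), the neighbour of Gjb2, fell at P36. It had 7.79, 4.86 and 7.41 FPKM in libraries labelled DKO, against 13.96, 11.47 and 12.90 FPKM in control libraries (log2 difference −0.86, SE 0.17, limma adjusted p = 0.00811). At 6 months it was at or near 0, with at most 0.1 FPKM in libraries labelled DKO and at most 0.02 FPKM in control libraries, and was not fitted. Like its neighbours Gjb2 and Gjb6, Gja3 was lower in every library labelled DKO than in every control at P36. At 6 months these genes were lower than at P36 in both genotypes. The same held for Gja1 on chromosome 10, so it was not particular to this run. Over all genes fitted at P36, 9.63% had the libraries labelled DKO lower without overlap, and the share that fell with age was not counted. Nothing is read from this, since Gjb2 and Gjb6 were chosen with these results known. Gjb1 (connexin 32, of liver and Schwann cells) had 1.00, 2.71 and 1.47 FPKM in libraries labelled DKO and 0.63, 0.56 and 0.63 FPKM in control libraries at P36 (0.71, limma adjusted p = 0.0502; with a pseudocount of 0.1, 1.26 and limma adjusted p = 0.0366). Gjb1 passed the filter through the libraries labelled DKO alone, so it had to differ. Gjc3 (connexin 29), at −0.06, and Gje1 (connexin 23), at −0.33, were not called at P36.

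At 6 months 4 of these other connexins passed the filter, of which limma called 0, with 0 at an unadjusted p below 0.05. Of all genes fitted 41.3% were called, 23.2% higher and 18.2% lower. The median log2 difference of the 4 genes was 0.08, against 0.04 over all genes. The log2 differences were 0.18 for Gja4 (limma adjusted p = 0.455), −0.48 for Gjc1 (limma adjusted p = 0.175), −0.01 for Gjc3 (limma adjusted p = 0.934) and 0.31 for Gje1 (limma adjusted p = 0.318). Without DKO 6-month replicate 2, Gje1 was called (0.57, limma adjusted p = 0.0278).

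Pannexins form channels of the plasma membrane that resemble hemichannels, and 2 of the 3 passed the filter. At P36 limma called 0 of them, and 0 had an unadjusted p below 0.05. Panx1 averaged 14.6 FPKM in libraries labelled DKO and 13.7 FPKM in control libraries at P36. At 6 months Panx3 rose, with 23.16, 22.88 and 14.24 FPKM in libraries labelled DKO against 5.43, 4.77 and 6.51 FPKM in control libraries (log2 difference 1.66, SE 0.20, limma adjusted p = 0.00127). For Panx1 at 6 months the means were 12.3 FPKM in libraries labelled DKO and 14.9 FPKM in control libraries (−0.25, limma adjusted p = 0.122).

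The genotype difference itself was compared between ages by limma on all 12 libraries, where 34.9% of 13280 genes were called, 13.8% with a change upwards at 6 months and 21.1% downwards. Panx3 (1.42, limma adjusted p = 0.0018), Gjc1 (−1.46, limma adjusted p = 0.00327) and Gja3 (0.90, limma adjusted p = 0.00798) differed between ages, the last with levels near 0 at 6 months. Gja4 was at the threshold (−0.72, limma adjusted p = 0.0475), and its call was lost in 9 of the 12 fits that left out 1 library, where the limma adjusted p reached 0.114.

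**Figure D3:**
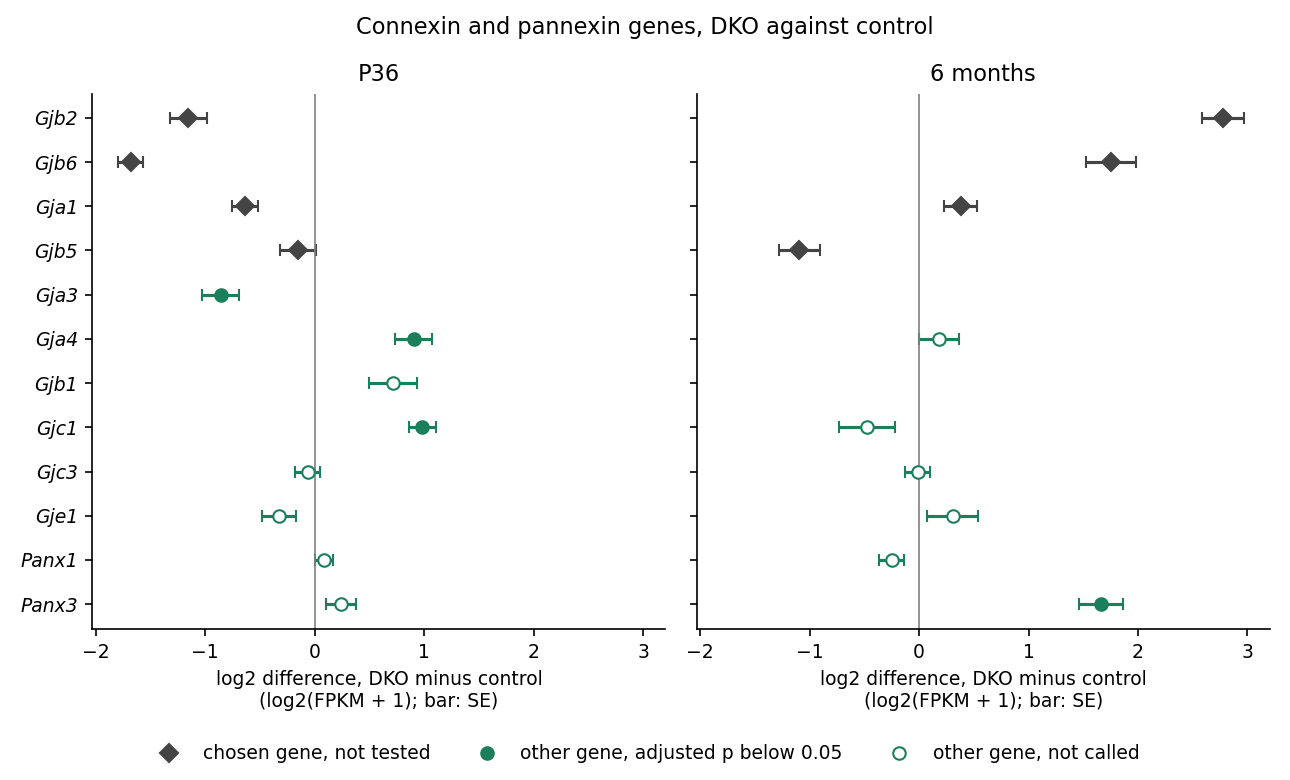
Log2 difference (libraries labelled DKO minus control, log2(FPKM + 1), bars are SE) for the connexin and pannexin genes described, at P36 and at 6 months. Diamonds are the 4 chosen genes, with no test, filled circles are other genes called by limma and open circles are not called; Gjb2 and Gjb6 are to the left of 0 at P36 and to the right at 6 months.

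Proteins that bind, traffic or degrade connexins were followed as a list of 12 genes, all fitted. At P36, 2 rose and 0 fell in the libraries labelled DKO (0 lower at an unadjusted p below 0.05), beside 18% and 5.32% of all genes fitted. The median log2 difference was 0.10, against 0.09 over all genes, so the list as a whole stood at the background. Cav1 (caveolin, a membrane scaffold that binds connexins) had 63.83, 63.81 and 61.62 FPKM in libraries labelled DKO, against 26.60, 27.81 and 23.05 FPKM in control libraries (1.26, SE 0.09, limma adjusted p = 0.000332). Ccn3, a secreted protein that binds connexin 43, was low at 1.303 FPKM in libraries labelled DKO and 0.72 FPKM in control libraries (0.42, limma adjusted p = 0.046). It passed the filter through the libraries labelled DKO alone, and its call was lost without any 1 control library (limma adjusted p = 0.099 to 0.112).

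At 6 months the median log2 difference of this list was −0.31, against 0.04 over all genes; 4 of its genes fell and 1 rose. The 5 called of 12 are near the 41.3% called among all genes fitted, of which 23.2% were higher and 18.2% lower as shares of all genes. Ezr (ezrin, a membrane to actin linker) had 110.44, 89.83 and 103.04 FPKM in libraries labelled DKO, against 267.40, 185.33 and 150.45 FPKM in control libraries (−0.95, SE 0.21, limma adjusted p = 0.0102). Cav1, higher at P36, fell here, with 84.87, 98.79 and 122.22 FPKM in libraries labelled DKO against 176.96, 145.25 and 163.92 FPKM in control libraries (−0.67, SE 0.15, limma adjusted p = 0.0111). Its genotype difference changed by −1.94 between ages (limma adjusted p = 6.46e-05), a turn opposite to that of Gjb2, Gjb6 and Gja1. Sgsm3, a partner of connexin 43, fell by 0.50 on the log2 scale (limma adjusted p = 0.0159), and Cnst (consortin, a trafficking receptor of connexins) fell by 0.34 (limma adjusted p = 0.0269). Ctnnb1 (beta-catenin), named after its value was seen as the 1 gene that rose, changed by 0.31 (limma adjusted p = 0.037). The Sgsm3 call was lost without DKO replicate 2 or control replicate 2 or 3 (limma adjusted p = 0.052 to 0.0613). Cnst lost its call without DKO replicate 1 or 3 or control replicate 2 or 3 (limma adjusted p = 0.0605 to 0.0935). Ctnnb1 kept its call only without control replicate 1, and lost it in the other 5 such fits (limma adjusted p up to 0.122) and with either other scaling (limma adjusted p = 0.0912 and 0.095).

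Kinases that phosphorylate connexin 43 formed a list of 10 genes, all fitted. At P36 limma called 0 of them, and 1 had an unadjusted p below 0.05; their median was 0.08. The smallest p were those of Prkcd (0.31, limma adjusted p = 0.0662) and Akt1 (0.14, limma adjusted p = 0.261). At 6 months their median was −0.39, against 0.04 over all genes; 4 of the 10 fell and 0 rose. Of all genes fitted at 6 months, 41.3% were called in either direction, near 4 of 10. All 4 of these kinases were lower, beside 18.2% of all genes. Nothing is read from this, since the list was chosen with earlier results of these data known. Prkcd, protein kinase C delta, had 43.23, 37.57 and 42.10 FPKM in libraries labelled DKO, against 66.68, 84.33 and 78.09 FPKM in control libraries (−0.88, SE 0.12, limma adjusted p = 0.00159). Mapk7 fell by 0.60 on the log2 scale (limma adjusted p = 0.0111), Prkaca, a catalytic subunit of protein kinase A, fell by 0.53 (limma adjusted p = 0.0199) and Akt1 fell by 0.46 (limma adjusted p = 0.0309). The Prkaca call was lost without DKO replicate 2 or control replicate 2 or 3 (limma adjusted p = 0.0651 to 0.0693), and Akt1 kept its call only without DKO replicate 3 (limma adjusted p = 0.00979, and up to 0.086 in the other 5 fits). Prkcd and Mapk7 kept their calls in all 6 fits that left out 1 library.

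Markers of the cell types in the samples differed between the same groups as the connexins, and in bulk samples fewer cells of a type and less RNA per cell cannot be told apart. All 8 basal keratinocyte markers were detected and fitted in both ages, as the tissue label says. The counts of called markers are to be set against all genes fitted, of which 18% were higher and 5.32% lower at P36, and 23.2% higher and 18.2% lower at 6 months. Inner root sheath and hair shaft markers were abundant at P36 and near 0 at 6 months. At P36, 10 of 10 fitted fell in the libraries labelled DKO, and they summed to 10758.6 to 14488.6 FPKM in libraries labelled DKO and 24682.7 to 30331.8 FPKM in control libraries. At 6 months they summed to 2.52 to 26.13 FPKM in libraries labelled DKO and 2.69 to 14.94 FPKM in control libraries, with 2 fitted, 0 called by limma and 0 with an unadjusted p below 0.05. Their order over the groups at P36 was that of Gjb2, Gjb6 and Gja1, whereas at 6 months they overlapped and those connexins did not. The part of hair follicle transcripts in the connexin levels was not tested.

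Wound keratins (Krt6a, Krt6b, Krt16 and Krt17) rose at 6 months, with 4 of 4 called. They summed to 1807.29 to 2733.74 FPKM in libraries labelled DKO and 810.69 to 1089.83 FPKM in control libraries. At P36, 2 of these 4, Krt6b and Krt16, rose and the sums overlapped. Krt6b needed the libraries labelled DKO to pass the filter at P36, so this count is not free of it. Basal keratinocyte markers had 3 of 8 higher and 1 lower at P36, beside 18% and 5.32% of all genes, and 0 higher and 6 lower at 6 months, beside 23.2% and 18.2%. Their P36 sums overlapped, at 5025.11 to 6629.16 FPKM in libraries labelled DKO and 3161.49 to 5136.52 FPKM in control libraries. Their 6-month sums were 3918.69 to 4726.87 FPKM in libraries labelled DKO and 6335.6 to 7846.73 FPKM in control libraries. Of the 8 suprabasal and cornified markers fitted, 3 rose and 1 fell at P36, and 3 rose and 4 fell at 6 months, against the same shares of all genes. The suprabasal sums were 4368.43 to 6003.37 FPKM in libraries labelled DKO and 1430.25 to 2256.53 FPKM in control libraries at P36. At 6 months they were 5853.77 to 7862.51 FPKM in libraries labelled DKO and 9569.67 to 14304.3 FPKM in control libraries. The part of these shifts in the connexin differences was not tested.

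Markers of muscle and endothelial cells, which are from outside the epidermis, and of immune cells were also detected. Skeletal muscle markers rose at P36 (8 of 8), with sums of 493.3, 288.48 and 119.49 FPKM in the libraries labelled DKO, against 15.33, 12.64 and 24.47 FPKM in control libraries. Myh4, Myh1 and Actn3 passed the filter at P36 through the libraries labelled DKO alone, so they had to be higher. Tnnt3 and Tnnc2 also needed these libraries to pass, so the P36 muscle count is not free of the filter. Among the libraries labelled DKO at P36, the muscle sum, Gjb2 and Gja1 were all highest in replicate 1 and lowest in replicate 3. At 6 months 0 of the 5 fitted muscle markers were called by limma (0 with an unadjusted p below 0.05), and replicate 3 labelled DKO, the library with the most Gja1 and Gjb2, had the highest muscle sum at 126.51 FPKM. Among the 6-month libraries labelled DKO, replicate 3 also had the highest fibroblast (922.58 FPKM), adipocyte (360.69 FPKM) and smooth muscle and endothelial sums (105.91 FPKM). It did not have the highest basal, suprabasal or sebaceous sum. The part of this in the Gja1 and Gjb2 levels was not tested. Smooth muscle and endothelial markers, the usual cells of Gja4 and Gjc1, had 5 of 8 higher at P36, with sums of 223.49 to 267.3 FPKM in libraries labelled DKO and 87.3 to 128.38 FPKM in control libraries. At 6 months 4 of the 8 fell, with sums of 49.6 to 105.91 FPKM in libraries labelled DKO and 166.03 to 217.56 FPKM in control libraries. These 4 were the smooth muscle genes Acta2, Myh11, Tagln and Cnn1. Of these, Cnn1 needed the control libraries to pass the filter at 6 months, which favoured this direction. The endothelial genes Pecam1, Cdh5, Kdr and Emcn were not called at 6 months. Immune cell markers had 6 of 7 higher at P36, beside 18% of all genes, and 1 higher and 1 lower of 7 at 6 months, beside 23.2% and 18.2%. Of the immune markers, Ptprc and Itgam passed the filter at P36 through the libraries labelled DKO alone, so they had to be higher. Cd3e also needed these libraries to pass, so the P36 count is not free of the filter.

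Sebaceous gland markers had 6 of 7 higher at P36, where 18% of all genes were, and 4 of 7 at 6 months, where 23.2% were. Adipocyte markers had 4 of 5 higher at P36, dermal fibroblast markers 2 of 6 higher, and melanocyte markers 3 of 6 lower, beside 5.32% of all genes lower. The adipocyte marker Plin1 passed the filter at P36 through the libraries labelled DKO alone, so it had to be higher. At 6 months limma called 0 fibroblast and 0 adipocyte markers (0 with an unadjusted p below 0.05 in both), and 2 of 6 melanocyte markers were lower, beside 18.2% of all genes. In no marker list was a gene with values at 0 in all libraries. Whether RNA of these cells takes part in the differences of the connexins was not tested.

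**Figure D4:**
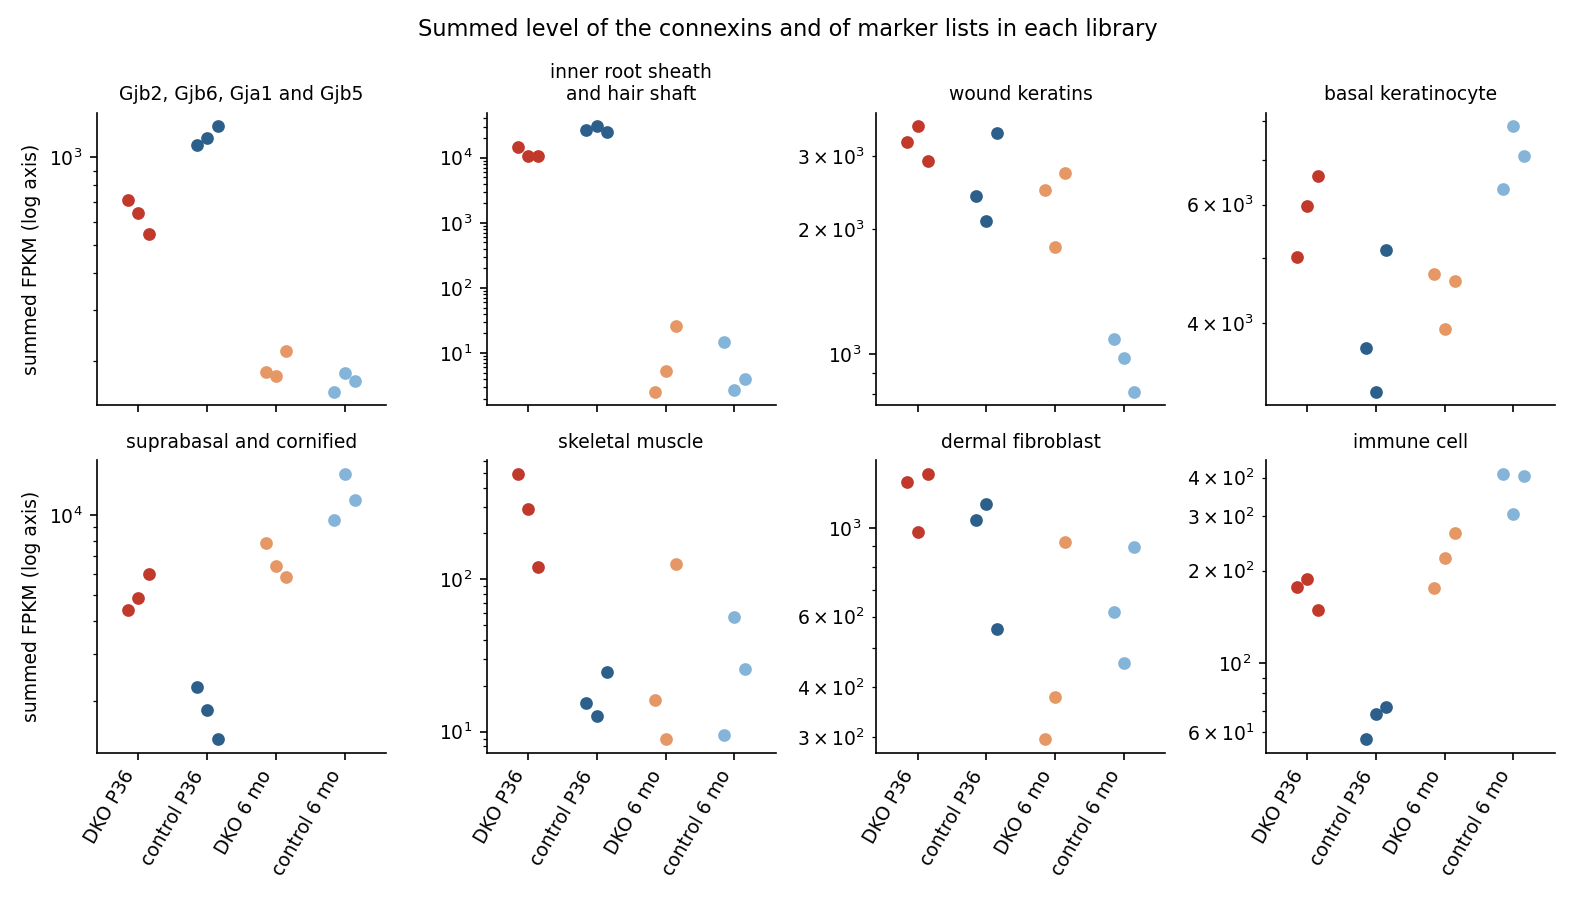
Summed FPKM of the 4 chosen connexins and of 7 marker lists in each library, on log axes with a scale of their own. The connexin sum and the hair follicle sum are both lower in DKO than in control at P36, and at 6 months the wound keratin sum is higher in DKO (1807.29 to 2733.74 FPKM) than in control (810.69 to 1089.83 FPKM).

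Across the 12 libraries, the log2 levels of Gjb2 and Gjb6 had a Pearson r of 0.970, Gjb2 and Gja1 one of 0.956, and Gjb6 and Gja1 one of 0.943. Gjb5 had r of −0.809 with Gjb2, −0.713 with Gjb6 and −0.665 with Gja1. These values describe 4 groups of 3 libraries and rest largely on the differences between groups. When the deviation of each library from its group mean was used instead, Gjb2 and Gja1 had r of 0.877, Gjb2 and Gjb6 had −0.448, and Gjb5 and Gja1 had −0.770. Gjb2 and Gjb6 therefore shared their order of groups but not their spread within groups, and libraries also share their depth and their makeup of cells.

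Genes whose levels were most like those of each connexin were sought among 9354 genes with a mean of at least 5 FPKM, by Pearson r over the 12 libraries. For Gjb2 these were Serinc2 (r = 0.993), Padi4 (0.993), Lap3 (0.992) and Smyd2 (0.992). Padi4 averaged 30.8 FPKM in libraries labelled DKO and 81.3 FPKM in control libraries at P36, and 6.95 FPKM in libraries labelled DKO and 0.687 FPKM in control libraries at 6 months. Lap3 followed the same order, with 180 FPKM in libraries labelled DKO and 282 FPKM in control libraries at P36, and 65.0 FPKM in libraries labelled DKO and 22.5 FPKM in control libraries at 6 months. For Gjb6 they were 2700097O09Rik (0.986), Exosc2 (0.986), Smyd2 (0.982) and Rnf149 (0.980), so that Smyd2 was shared by Gjb2 and Gjb6.

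For Gja1 they were Lpcat4 (0.996), Ass1 (0.993), Ttc7b (0.993) and Hoxc13 (0.993). Hoxc13, a homeobox gene needed for hair shaft formation, averaged 64.0 FPKM in libraries labelled DKO and 119 FPKM in control libraries at P36. At 6 months Hoxc13 averaged 8.43 FPKM in libraries labelled DKO and 7.86 FPKM in control libraries. For Gjb5 the most alike genes were Homer2 (0.965), Fut1 (0.960), Krt80 (0.953) and Esrp1 (0.952). Krt80, a keratin, averaged 159 FPKM in libraries labelled DKO and 230 FPKM in control libraries at P36, and 204 FPKM in libraries labelled DKO and 601 FPKM in control libraries at 6 months. Like Gjb5, it was highest in control libraries at 6 months.

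By deviations from the group means, the most alike genes were others, except for 2700097O09Rik. They were Mtap (0.984), Cfl1 (0.943), Dnlz (0.940) and Tnc (0.938) for Gjb2, and 2700097O09Rik (0.902), Fam204a (0.888), Psma3 (0.886) and Pdhb (0.885) for Gjb6. For Gja1 they were Pvalb (0.965), Fkbp1a (0.964), Cotl1 (0.956) and Tnni2 (0.953), and for Gjb5 they were Esyt3 (0.927), Ces2f (0.907), Rnf225 (0.905) and Dlg3 (0.904). These r were the highest among 9354 genes over 12 libraries, so their size owes in part to the search, and none was tested. Pvalb and Tnni2 are muscle genes, and the muscle marker sum varied in the same libraries, as given above.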

How the data were processed

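Epidermal RNA was freed of ribosomal RNA with RNase H and read on a BGISEQ-500, per the labels' protocols. HISAT2 2.1.0 and RSEM 1.2.8 were used, per the submitters' processing notes. For these mouse samples the notes list GRCh38 and hg38, which are human builds. The authors deposited 1 table per age with FPKM values to 2 decimals. Per the file headers, each table also has a q-value, a p-value and a log2 ratio (DKO over control) for every gene; how these were tested is not stated. The age of a table comes from its name alone. Of the gene numbers with values, 19343 of 19392 at P36 and 17712 of 17750 at 6 months matched a RefSeq table of GRCm38.p6. Because the tables hold no counts, limma 3.58.1 in R 4.3.3 (trend) was fitted to log2(FPKM + 1), a scale that understates changes of low genes. A gene entered a fit if 3 or more of its libraries reached 1 FPKM. Adjustment was by Benjamini-Hochberg over all genes, and adjusted p-values below 0.05 were called. Each age used its own 6 libraries, and the difference between ages all 12. Some genes of the lists are not reported here. The connexins and all lists were chosen with earlier results of these data known. Named were Vdr, Med1, the connexins and pannexins fitted, and of the partner and kinase lists the 4 called genes with the smallest adjusted p per age, or 2 with the smallest p where none was called. Of the wound keratin, muscle, endothelial, immune and adipocyte lists, single markers were named after their values were seen. No pair of libraries was a duplicate, with at most 0.405% identical values. The fits were tested on simulated data. Alternatives were another pseudocount, other filters, other scalings, a replicate block, a joint fit and leaving out each library.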

Additional observations from a re-analysis of the deposited data

Results flagged for a closer look

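The genotype difference had opposite directions at the 2 ages for Gjb2, Gjb6 and Gja1: every library labelled DKO was below every control library at P36 and above every control library at 6 months. The change in the log2 difference between ages (6 months minus P36) was 3.93 for Gjb2, 3.43 for Gjb6 and 1.01 for Gja1. These 3 differences were not tested, since the genes were chosen with the results known.

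For 4 genes of the fixed lists of other connexins and pannexins, limma on all 12 libraries called the genotype difference different between ages. The change was 1.42 for Panx3 (limma adjusted p = 0.0018), −1.46 for Gjc1 (limma adjusted p = 0.00327), 0.90 for Gja3 (limma adjusted p = 0.00798) and −0.72 for Gja4 (limma adjusted p = 0.0475). Panx3, Gjc1 and Gja3 kept the call in all 12 fits that left out 1 library, and Gja4 in 3 of them. Gja3 was at or near 0 in every library at 6 months. Groups of 3 libraries are too small to test single libraries as outliers.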

How the results depend on the processing

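Gjb2, Gjb6 and Gja1 kept their direction at both ages, and Gjb5 at 6 months, under every alternative run (pseudocount, filters, scalings, replicate block, joint fit and each library left out). The largest move was that of Gjb6 at 6 months, 2.32 with a pseudocount of 0.1 against 1.75. Leaving out each library in turn gave, at P36, −1.304 to −0.97 for Gjb2, −1.78 to −1.58 for Gjb6, −0.70 to −0.55 for Gja1 and −0.32 to 0.03 for Gjb5, and at 6 months 2.56 to 2.90 for Gjb2, 1.55 to 1.91 for Gjb6, 0.22 to 0.46 for Gja1 and −1.25 to −0.88 for Gjb5. Other connexins and pannexins called numbered 3 at P36, and 1 with a filter at 5 FPKM; at 6 months they numbered 1, with 4 under no filter on low values, 2 when all 12 libraries were fitted jointly and 1 to 2 with 1 library left out (2 without DKO replicate 2). The filter settings change how many genes enter the fit; for the joint fit the cause was not tested. Genes called at P36 numbered 2949, and 1662 to 2660 with 1 library left out, the fewest without replicate 2 or 3 labelled DKO (1662 and 1697). At 6 months the range was 3682 to 4893 and for the difference between ages 3603 to 4843. Median-ratio scaling moved the median log2 difference of all genes at P36 to −0.03, against 0.09, and gave 1597 genes higher and 1113 lower in place of 2275 and 674; totals without the top 1 percent of genes gave 1802 and 837. Relative to that shift no direction of Gjb2, Gjb6 or Gja1 turned.

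The labels do not say whether the replicate numbers pair the samples. Libraries of the same number had correlations of their deviations of 0.13, −0.06 and −0.12 at P36 and −0.06, 0.03 and 0.18 at 6 months. Not every library correlated best with its own number, but with 3 libraries per group these values cannot decide whether pairs exist. With the replicate block 1963 genes were higher and 644 lower at P36, and 2637 higher and 2225 lower at 6 months, and the block left the log2 differences of the 4 chosen connexins as they were (−1.15 for Gjb2 at P36, 2.77 at 6 months). Outside the 4 chosen connexins and apart from leaving out a library, the calls of Ccn3 at P36, Ctnnb1 and Cnst at 6 months and Gja4 in the difference between ages were lost under 1 or more alternatives. Calls were gained for Gjb1 at P36, Panx1 at 6 months, and Panx1 and Gje1 in the difference between ages, and none turned direction while called. Read depth is unknown, so the precision of low values, such as Gjb6 in control libraries at 6 months, cannot be given.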
